A study of Mus musculus with 4 samples.

Results

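The 10 genes described here encode core hematopoietic transcription factors and cofactors that share binding sites with Gfi1b: Gata1, Gata2, Zfpm1, Tal1, Lyl1, Lmo2, Ldb1, Runx1, Fli1 and Nfe2. They were chosen by symbol, through the mouse Ensembl identifiers of GENCODE, and all 10 were found among the 37140 genes listed in all 4 count tables. RNA-seq libraries were made from hematopoietic stem cells (HSCs) of C57Bl6 bone marrow, with 1 library in each of 4 groups. WT and KO HSCs were sorted as lineage-negative cells positive for cKit and Sca1, negative for CD48 and positive for CD150. WT and KO CD41low/CD9low HSCs were the fraction of such cells with low CD41 and CD9 on the surface, a gate that was drawn to leave out MK (megakaryocyte) precursors. For the HSC libraries the methods name no CD41 or CD9 gate, while the results text of the paper calls them CD41+/CD9+ HSCs. Which of these was sorted cannot be told here. In the KO groups both floxed Gfi1b alleles were deleted by tamoxifen, given to mice with a Rosa-CreER transgene, from a locus that is active in nearly all tissues. The methods give the controls as tamoxifen-treated Rosa-Cre Gfi1b wt/fl mice, while the series text gives controls without Cre, and which was sequenced cannot be told here. The sample titles write Gfi1 where the genotype label and the series title write Gfi1b, and the latter was taken. Bone marrow of several mice was pooled before the sort, and the ages were not given in the sources used here. Counts on genes came to 50781007 in WT HSCs, 41690708 in KO HSCs, 12732079 in WT CD41low/CD9low HSCs and 19123185 in KO CD41low/CD9low HSCs.

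With 1 library per group there was no replicate of a genotype within a population. Ratios between KO and WT are therefore given with exact (Clopper-Pearson) 95% intervals that cover counting error only, and without a p-value. A ratio above 1.5 or below 0.6 is called above or below, the limits that the study used. The HSC pair and the CD41low/CD9low pair were counted on different annotation releases, with 38293 and 41214 genes listed. Differences between the populations therefore cannot be told apart from annotation, depth or sort.

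The targeted gene was measured first. Levels are given in CPM, counts per 1000000 counts on genes. Gfi1b stood at 182 CPM in WT HSCs and 1197 CPM in KO HSCs, and at 48.0 and 509 CPM in WT and KO CD41low/CD9low HSCs. The whole-gene count was thus 6.66-fold (6.51 to 6.81) and 10.6-fold (9.79 to 11.6) higher in the KO libraries. That count does not separate the floxed exons from the rest of the transcript, so it is no check of the deletion. The paper reports that expression of the floxed exons was absent in its Gfi1b-deficient HSCs and MKs. The paralog of Gfi1b was measured next. This paralog, Gfi1, stood at 11.2, 105, 32.4 and 138 CPM in the same order, which is 9.57-fold (8.76 to 10.5) and 4.27-fold (3.85 to 4.74) higher in KO. All 12 HSC markers listed were detected in all 4 libraries. Kit, the receptor for stem cell factor, stood at 989, 1030, 1031 and 1262 CPM, and Hlf, a factor of stem cells, at 280.4, 185, 439.7 and 329 CPM. Among the markers of other cells, the WT CD41low/CD9low library stood apart from its KO partner. The summed level of 14 granulocyte and monocyte markers was 704 CPM in WT HSCs, 745 CPM in KO HSCs, 1484 CPM in WT CD41low/CD9low HSCs and 571 CPM in KO CD41low/CD9low HSCs, although Gr1 and CD11b were in the lineage cocktail used to deplete such cells. Of these markers, 12 of the 13 with at least 10 counts had a ratio below 0.6 in CD41low/CD9low HSCs and 1 of 13 in HSCs. The shares of all genes below 0.6 were 12% in CD41low/CD9low HSCs and 10.3% in HSCs.

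GATA factors bind the letters GATA in DNA through zinc fingers. In blood cells Gata2 acts in stem and progenitor cells. Gata1 takes over its sites in the erythroid and megakaryocytic lineages with the help of Zfpm1 (Friend of GATA). Tal1 and its relative Lyl1 are basic helix-loop-helix proteins that bind E-boxes with E proteins. The LIM-only protein Lmo2 and the LIM-binding protein Ldb1 bind no DNA and bridge Tal1 to GATA factors. Runx1, the Ets protein Fli1, Erg, Gata2, Tal1, Lyl1 and Lmo2 together form the heptad of factors that occupy many stem cell enhancers. Nfe2 pairs with small Maf proteins and drives the last steps of platelet formation. Gfi1b binds sites with an AATC core and brings histone demethylases to them.

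RefSeq promoter windows, from 250 bases before to 50 bases after a transcript start, were available for 7 of the 10 genes, with 12 windows in all. The stretches before the start are shown for the GATA factors, for Zfpm1 and for Tal1, with only the upstream window where a gene had 2 (Gata2 and Tal1), because the GATA group held both genes that were called above in CD41low/CD9low HSCs, and Tal1 is their partner. Coordinates are GRCm38.p6, the sequences run 5′ to 3′ on the strand of the gene, and capitals mark the searched letters described after them. The Gata1 stretch lies inside the annotated span of the gene but in none of its exons.
Gata1, chrX:7967911-7968160, minus strand: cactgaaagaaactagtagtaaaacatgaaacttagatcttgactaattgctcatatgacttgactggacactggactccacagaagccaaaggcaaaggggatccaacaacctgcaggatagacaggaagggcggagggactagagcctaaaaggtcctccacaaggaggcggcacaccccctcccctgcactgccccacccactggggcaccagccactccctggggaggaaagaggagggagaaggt
Gata2, chr6:88193641-88193890, plus strand: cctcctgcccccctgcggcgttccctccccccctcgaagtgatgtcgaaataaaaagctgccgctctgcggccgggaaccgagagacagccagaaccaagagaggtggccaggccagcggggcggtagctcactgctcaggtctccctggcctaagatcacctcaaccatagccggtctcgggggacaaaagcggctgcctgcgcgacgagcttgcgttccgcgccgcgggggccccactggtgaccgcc
Zfpm1, chr8:122281891-122282140, plus strand: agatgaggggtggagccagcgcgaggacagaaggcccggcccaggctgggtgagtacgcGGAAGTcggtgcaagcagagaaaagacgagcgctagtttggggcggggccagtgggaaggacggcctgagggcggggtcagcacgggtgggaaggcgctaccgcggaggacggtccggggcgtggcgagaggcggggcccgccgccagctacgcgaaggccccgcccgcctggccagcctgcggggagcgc
Tal1, chr4:115056176-115056425, plus strand: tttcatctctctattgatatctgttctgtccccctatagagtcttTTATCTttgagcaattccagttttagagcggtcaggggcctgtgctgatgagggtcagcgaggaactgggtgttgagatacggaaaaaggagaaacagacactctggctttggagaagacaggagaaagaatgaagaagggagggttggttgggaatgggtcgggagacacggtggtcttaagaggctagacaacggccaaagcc

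Both strands of the 12 windows were searched for short stretches of letters that these proteins prefer. For GATA factors AGATAA was used, with TGATAA as a second form. For the E-box of helix-loop-helix proteins CAGNTG was used. For Ets proteins the search was for GGAAGT. For Runx proteins the search was for TGTGGT. For Nfe2 it was for TGANTCA, which AP-1 shares. For Gfi proteins AAATCA was searched, and so was AAATCT as the other form. GATA letters were found in 2 of the 12 windows, 1 of Tal1 and 1 of Ldb1, against 18.6% of all 32851 windows in the table. The Tal1 match lay 205 to 200 bases before the start. An E-box was found in 5 of 12 windows (Gata2, Tal1, Lyl1, Ldb1 and Runx1), against 51.4% of all windows. That of Gata2 lay in its second window, which is not shown, 17 to 22 bases after the start, and that of Tal1 lay 10 to 15 bases after the start of the window shown, beyond the printed stretch. Zfpm1 held the Ets letters, which 23.8% of all windows hold, and Runx1 held the Runx letters, which 16.8% hold. The Gfi letters, present in 25.2% of all windows, and the Nfe2 letters, present in 7.81%, were in none of the 12. The Gfi search asked for bases on either side of the AATC core. The core without those bases was not counted, and it does occur in windows of Tal1 and Ldb1. These counts describe the letters in short windows and say nothing of binding.

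Every gene of the group was expressed in all 4 libraries, and the levels ranged widely. To compare genes, CPM were divided by exon length in kilobases (RPKM). Lmo2 was the most abundant in each library, at 408 RPKM in WT HSCs, 265 in KO HSCs, 524 in WT CD41low/CD9low HSCs and 464 in KO CD41low/CD9low HSCs. Fli1 came next in both HSC libraries (119 and 172 RPKM) and Nfe2 in both CD41low/CD9low libraries (116 and 130.3 RPKM). At the other end Gata1 was the lowest in 3 libraries, at 20.0 RPKM in KO HSCs, 3.22 in WT CD41low/CD9low HSCs and 8.75 in KO CD41low/CD9low HSCs. In WT HSCs Runx1, whose merged exons span 12025 bases, lay lowest at 15.2 RPKM, below Gata1 at 25.8. Between neighbours in this order the counting intervals overlapped for Zfpm1 and Tal1 in WT HSCs (63.6 and 63.1 RPKM), for Tal1 and Zfpm1 in WT CD41low/CD9low HSCs (56.2 and 55.2) and for Ldb1 and Gata2 in KO CD41low/CD9low HSCs (73.5 and 72.0). Between WT and KO HSCs Gata2 moved furthest in the order, from the seventh place to the third.

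**Figure D1:**
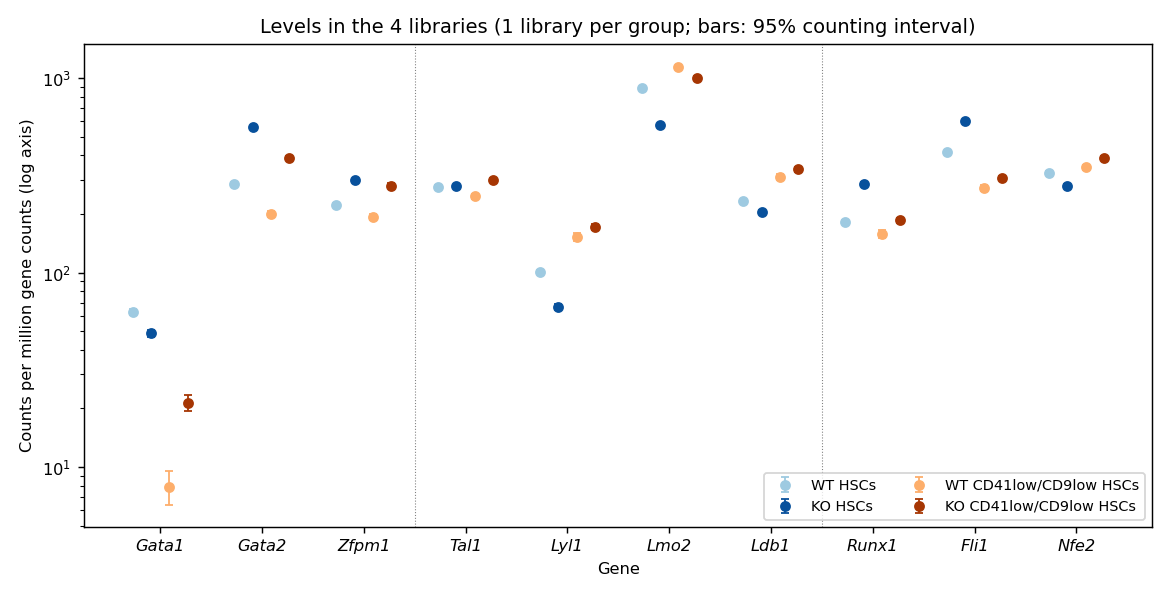
Level of each gene in the 4 libraries, in CPM on a log axis, with 1 point per library and bars for the 95% counting interval. Gata2 lies higher in both KO libraries than in both WT libraries, while Gata1 lies higher in both HSC libraries (63.0 and 48.6) than in both CD41low/CD9low libraries (7.85 and 21.3).

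In HSCs 2 of the 10 genes had a KO/WT ratio above 1.5 (Gata2 and Runx1) and 0 had one below 0.6. Among all 15910 genes with at least 10 counts in the pair, 14.1% lay above 1.5 and 10.3% below 0.6. All 10 genes had at least 1000 counts in HSCs, and among the 8444 genes with at least 1000 counts the shares were 6.34% above and 2.03% below. In CD41low/CD9low HSCs 2 of 10 lay above (Gata1 and Gata2) and 0 below, against 13.5% and 12% of 14844 genes. Of the 9 with at least 1000 counts in that pair, which leaves out Gata1, only Gata2 lay above, against 2.14% above and 0.285% below among 4907 genes. The median log2 KO/WT of the group was -0.07 in HSCs, with 5 genes higher and 5 lower, and 0.21 in CD41low/CD9low HSCs, with 9 higher and 1 lower. Over all genes the medians were 0.00 and 0.01, with 7957 of 15910 and 7576 of 14844 genes higher in KO.

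**Figure D2:**
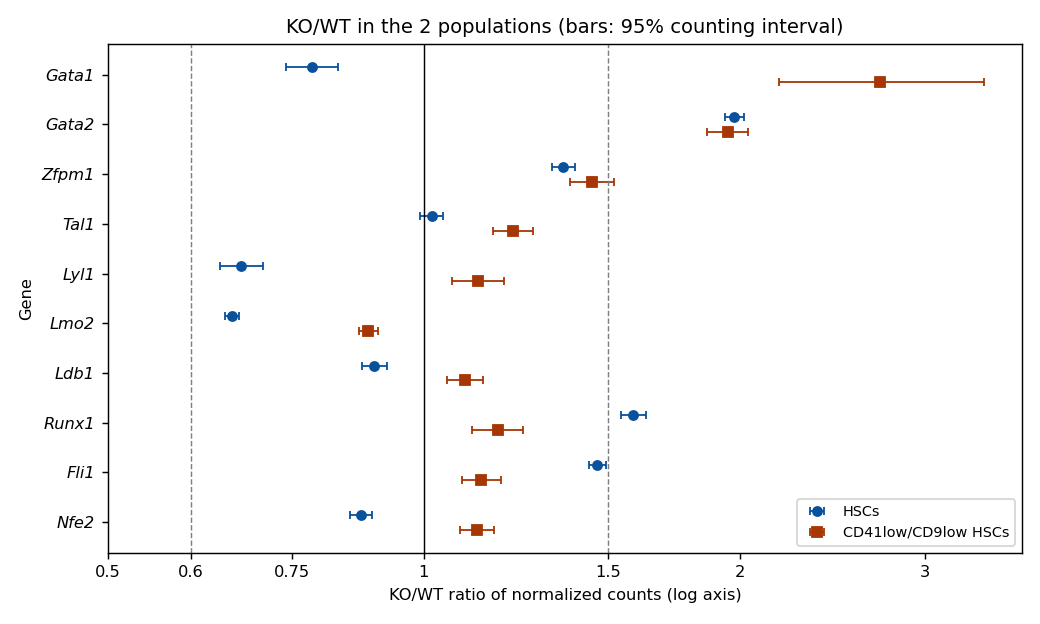
KO/WT ratio of each gene on a log axis, in HSCs (circles) and CD41low/CD9low HSCs (squares), with bars for the 95% counting interval, a solid line at 1 and dashed lines at 0.6 and 1.5. Gata2 and Zfpm1 lie in nearly the same place in both populations, Gata1 lies at 0.783 and 2.72, and no gene lies below 0.6.

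Among the GATA factors, Gata2 was higher in both KO libraries and by nearly the same factor. Gata2 (ENSMUSG00000015053, chr6:88193891-88207032 on mm10, plus strand) stood at 287 CPM in WT HSCs and 559 CPM in KO HSCs. In the CD41low/CD9low fraction it stood at 199.6 CPM in WT and 388 CPM in KO. Both KO libraries thus lay above both WT libraries. The KO/WT ratio came to 1.98 (1.94 to 2.02) for HSCs, and for the CD41low/CD9low fraction it was 1.95 (1.86 to 2.04). Their log2 values differed by -0.02, with a counting interval of -0.09 to 0.05. In bulk libraries such as these, a change in the share of cells that express a gene and a change in its RNA per cell cannot be told apart.

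Gata1 was lower in KO HSCs and higher in KO CD41low/CD9low HSCs than in their WT partners. Gata1 (ENSMUSG00000031162, chrX:7959260-7978071, minus strand) was at 63.0 CPM in WT HSCs and 48.6 CPM in KO HSCs, from 3197 and 2028 counts. It was at 7.85 CPM (6.39 to 9.55) in WT CD41low/CD9low HSCs and at 21.3 CPM (19.3 to 23.5) in KO CD41low/CD9low HSCs, from 100 and 408 counts. The ratio was thus 0.783 (0.740 to 0.828) for HSCs, but 2.72 (2.18 to 3.42) for the CD41low/CD9low fraction. The WT CD41low/CD9low library, which had the least Gata1, was also the one with the most granulocyte and monocyte marker RNA, and their part in the Gata1 ratio was not tested. The ratio of Gata2 to Gata1 within a library, on the RPKM scale, was 2.06 in WT HSCs, 5.19 in KO HSCs, 11.5 in WT CD41low/CD9low HSCs and 8.22 in KO CD41low/CD9low HSCs.

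Zfpm1, the GATA cofactor (ENSMUSG00000049577, chr8:122282141-122337251, plus strand), was higher in KO in both populations without reaching 1.5. It stood at 223 and 299 CPM in WT and KO HSCs, and at 193 and 279 CPM in WT and KO CD41low/CD9low HSCs. The ratios were 1.36 (1.33 to 1.39) and 1.45 (1.38 to 1.52). On the RPKM scale Zfpm1 exceeded Gata1 2.46-fold in WT HSCs and 4.28-fold in KO HSCs. For the CD41low/CD9low fraction these values were 17.1-fold in WT and 9.11-fold in KO.

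**Figure D3:**
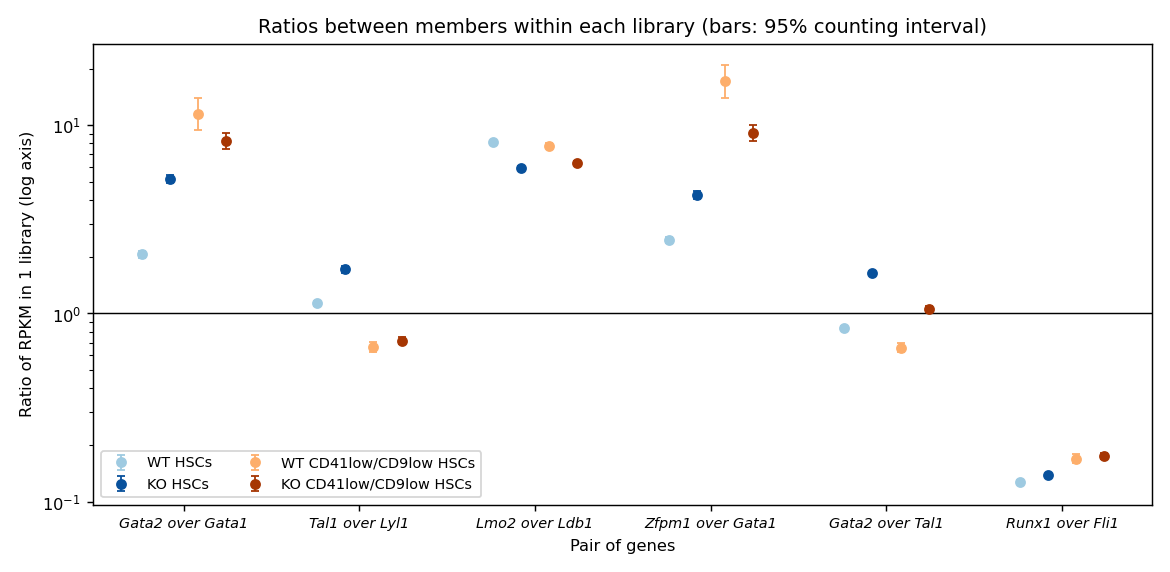
Ratio of RPKM between pairs of the genes within each library, on a log axis, with bars for the 95% counting interval and a line at 1. Gata2 over Gata1 is 2.06 in WT HSCs and 11.5 in WT CD41low/CD9low HSCs. On this scale, which depends on exon length, Gata2 over Tal1 crosses 1 between WT and KO in both populations.

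The Tal1 complex showed no gene past either limit. Tal1 itself (ENSMUSG00000028717, chr4:115056426-115071755, plus strand) was nearly level in HSCs, at 276 CPM in WT and 278 CPM in KO, with a ratio of 1.02 (0.993 to 1.04). In CD41low/CD9low HSCs it stood at 246 and 299 CPM, a ratio of 1.22 (1.16 to 1.27). On the RPKM scale Gata2 was below Tal1 in both WT libraries, at 0.842 and 0.658 times, and above it in both KO libraries, at 1.63 and 1.05 times. In WT HSCs this order depends on the exon lengths, since in CPM Gata2 stood at 287 and Tal1 at 276.

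Lyl1 (ENSMUSG00000034041, chr8:84701457-84704715, plus strand) was lower in KO HSCs, at 66.5 against 100.5 CPM, with a ratio of 0.671 (0.640 to 0.703). In CD41low/CD9low HSCs it was at 171 CPM in KO against 152 in WT, with a ratio of 1.13 (1.07 to 1.19). On the RPKM scale Tal1 exceeded Lyl1 in WT and KO HSCs (1.13-fold and 1.72-fold) but was below it in the CD41low/CD9low libraries (0.664 and 0.717 times). Lyl1 shares 4 exon bases with Nfix on the other strand.

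The genes of both bridging proteins were also lower in KO HSCs. Lmo2 (ENSMUSG00000032698, chr2:103957986-103981878, plus strand) was at 885 CPM in WT HSCs and 574 CPM in KO HSCs, a ratio of 0.657 (0.647 to 0.668). It was at 1136 and 1005 CPM in WT and KO CD41low/CD9low HSCs, a ratio of 0.886 (0.867 to 0.905). Lmo2 was the only gene of the 10 that was lower in KO in both populations. Ldb1 (ENSMUSG00000025223, chr19:46031570-46045214, minus strand) moved little, at 232 and 206 CPM in HSCs and 309.5 and 339 CPM in CD41low/CD9low HSCs, with ratios of 0.897 (0.873 to 0.923) and 1.10 (1.05 to 1.14). Ldb1 shares 177 exon bases, 3.8% of its exon length, with Pprc1 on the other strand, and the strand setting of the counting is not given in the sources used here. Per length, Lmo2 exceeded Ldb1 8.11-fold and 7.80-fold in the WT libraries and 5.94-fold and 6.31-fold in the KO libraries, HSCs first.

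Runx1 and Fli1 were higher in KO HSCs and less so in the CD41low/CD9low fraction. Runx1 (ENSMUSG00000022952, chr16:92601466-92826149, minus strand) was at 183 and 285 CPM in WT and KO HSCs and at 158 and 185 CPM in WT and KO CD41low/CD9low HSCs. Its ratios were 1.58 (1.54 to 1.63) and 1.18 (1.11 to 1.24). Fli1 (ENSMUSG00000016087, chr9:32422204-32542861, minus strand) was at 414 and 599 CPM in HSCs and at 271 and 307 CPM in CD41low/CD9low HSCs. Its ratios were 1.46 (1.44 to 1.49) and 1.14 (1.09 to 1.18). After subtraction of the running median over 500 genes of similar exon length the HSC ratio of Runx1 was 1.39, no longer above 1.5, and that of Fli1 was 1.503, just above it. Runx1 shares 106 exon bases, 0.9% of its exon length, with an antisense gene.

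Nfe2 (ENSMUSG00000058794, chr15:103248212-103258403, minus strand) stood at 326 and 280.1 CPM in WT and KO HSCs and at 347 and 389 CPM in WT and KO CD41low/CD9low HSCs. The ratios of 0.871 (0.851 to 0.892) and 1.12 (1.08 to 1.17) lay on either side of 1, and neither came near the limits.

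Within the heptad, the HSC pair thus held Gata2, Runx1 and Fli1 higher, at ratios of 1.98, 1.58 and 1.46, and Tal1 nearly level. Lyl1, Lmo2 and Erg were lower there, at ratios of 0.671, 0.657 and 0.676. In CD41low/CD9low HSCs the same genes in the same order had ratios of 1.95, 1.18, 1.14, 1.22, 1.13, 0.886 and 1.14. After the correction for exon length, the HSC ratios of Gata2, Runx1 and Fli1 were 1.93, 1.39 and 1.503. Those of Lyl1 and Lmo2 came nearer to 1, at 0.728 and 0.715. Lyl1 and Erg had counting intervals wholly below 1 in HSCs and wholly above 1 in the CD41low/CD9low fraction. Of the 10 genes, 4 had intervals placed in this way (Gata1, Lyl1, Ldb1 and Nfe2) and 0 in the reverse way. Among 14144 genes with at least 10 counts in both pairs, 8.07% were placed in this way and 8.05% in reverse. Counting intervals are narrow for genes with many counts, and among 4891 genes with at least 1000 counts in both pairs, which again leaves out Gata1, the shares were 11.2% and 7.2%.

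A model over all 4 libraries was then fitted, with a term for population and a term for genotype. It had 1 residual degree of freedom, so the populations stand in for replicates of the genotype effect. They are not replicates in a strict sense. In the edgeR fit the spread of each gene was moderated towards that of all genes, with 15.7 prior degrees of freedom. A gene's p-value thus rests more on this shared spread than on its own disagreement between the 2 populations. The methods describe 1 marrow pool per genotype, so both libraries of a genotype may come from the same mice. The p-values of this model therefore do not rest on 2 pairs known to be independent. By edgeR's quasi-likelihood test with Benjamini-Hochberg adjustment over 14940 genes, 0.535% of the genes rose and 0.308% fell in KO at an adjusted p under 0.05. Of the 10 genes, Gata2 was the only one called. Its log2 KO/WT was 0.97 ± 0.14 (SE), with an adjusted p of 0.00137 by edgeR with Benjamini-Hochberg adjustment, and it ranked 29 by p. DESeq2 gave Gata2 an adjusted p of 1.09e-08, and over all alternatives its adjusted p ranged from 6.45e-09 to 0.00661.

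The other 9 genes did not pass. Zfpm1 had a log2 KO/WT of 0.49 ± 0.14 (SE) and an adjusted p of 0.160 in edgeR's quasi-likelihood test, and it passed only without the filter on low counts, at 0.0408. Runx1 stood at 0.45 ± 0.15 and Fli1 at 0.37 ± 0.14, with adjusted p-values of 0.254 and 0.378 by edgeR with Benjamini-Hochberg adjustment. Lmo2 stood at -0.39 ± 0.14, with an adjusted p of 0.315 by the same edgeR test. Gata1, whose ratios pointed in opposite directions, had the largest standard error of the group, 0.45 ± 0.30, and an adjusted p of 0.714 in the edgeR fit. Before adjustment 5 of the 10 had a p under 0.05, as did 1501 of the 14940 genes.

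**Figure D4:**
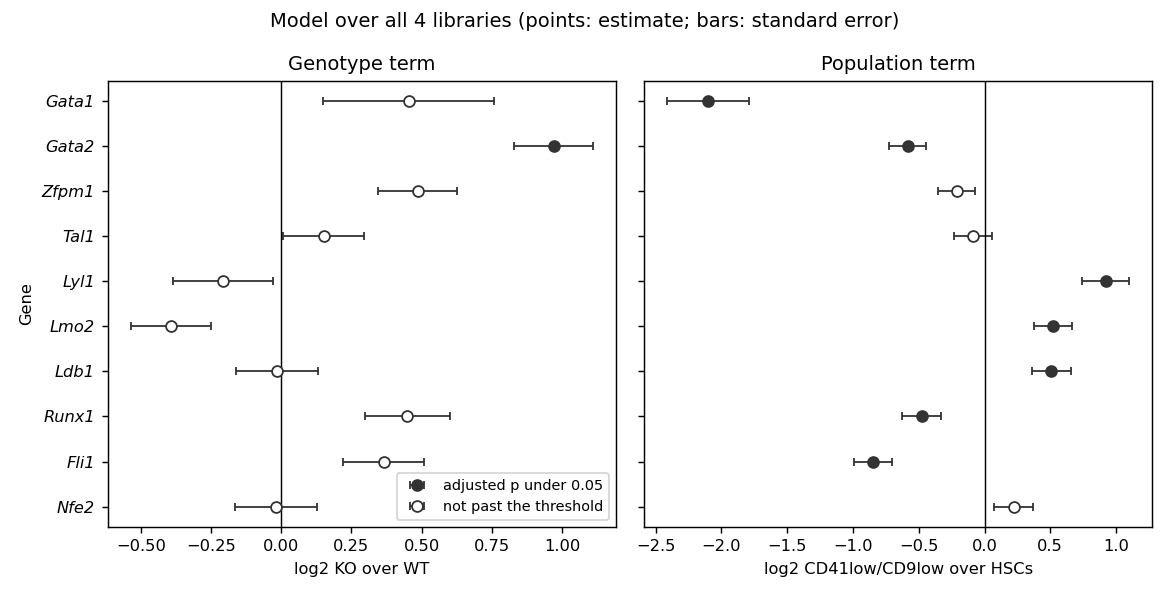
Estimates of the genotype term (left, log2 KO over WT) and the population term (right, log2 CD41low/CD9low over HSCs) for each gene in the model over all 4 libraries, with bars for the standard error and filled points for adjusted p-values under 0.05. Gata2 is the filled point on the left at 0.97, and 7 of the 10 genes are filled on the right.

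More of these genes were called between the populations than between the genotypes, 7 against 1. The same held over all 14940 genes, with 3107 against 126 called. For the population term the genotypes stand in for replicates, and population cannot be told apart from sort, depth or annotation. In the same edgeR fit 8.24% of all genes were higher and 12.6% lower in CD41low/CD9low HSCs, and the 7 genes split into 3 higher and 4 lower. Gata1 was lowest relative to HSCs, at a log2 difference of -2.10 ± 0.31 (SE) with an adjusted p of 0.000172 by edgeR. It was 8.39-fold (6.87 to 10.3) higher in HSCs than in the CD41low/CD9low fraction among WT cells and 2.38-fold (2.14 to 2.66) among KO cells. Fli1 was also lower in the CD41low/CD9low fraction, by edgeR's estimate of -0.85 ± 0.15 with an adjusted p of 0.000579. Gata2 followed at -0.59 ± 0.14 with an adjusted p of 0.00644 by edgeR, and HSCs exceeded the CD41low/CD9low fraction 1.503-fold in WT and 1.504-fold in KO. Runx1 was the weakest of the 4, at -0.48 ± 0.15 with an adjusted p of 0.0326 by edgeR.

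The 3 genes that were higher in the CD41low/CD9low fraction all belonged to the Tal1 complex. Lyl1 stood at a log2 difference of 0.92 ± 0.18 (SE) with an adjusted p of 0.00156 by edgeR. Lmo2 stood at 0.52 ± 0.14 and Ldb1 at 0.51 ± 0.15, with edgeR adjusted p-values of 0.0158 and 0.0200. Tal1, Zfpm1 and Nfe2 had estimates of -0.09, -0.21 and 0.22, and their adjusted p-values by edgeR were 0.728, 0.327 and 0.323. Megakaryocyte genes moved the same way as Gata1 and Fli1 between the populations, since 14 of the 19 tested were lower in the CD41low/CD9low fraction in this fit and 0 were higher, also at an unadjusted p under 0.05 and by DESeq2. The list holds Itga2b, which encodes the CD41 that set the gate. Their part in the differences of the 4 lower genes was not tested.

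The relatives and partners of the 10 genes were counted in fixed lists, beside the shares of all genes of 14.1% above 1.5 and 10.3% below 0.6 in HSCs and of 13.5% and 12% in CD41low/CD9low HSCs. Among 7 relatives and partners of the GATA group, 5 had at least 10 counts in HSCs, with 2 above 1.5 and 1 below 0.6, and 4 in CD41low/CD9low HSCs, with 0 above and 1 below. Klf1, an erythroid factor that Gata1 activates, was low and lower in KO in both populations, at 11.8 and 6.62 CPM in HSCs and 4.32 and 1.88 CPM in CD41low/CD9low HSCs, with ratios of 0.570 (0.492 to 0.658) and 0.436 (0.278 to 0.676). Spi1, the myeloid factor that opposes Gata1, had ratios of 0.811 and 0.966. Trps1, a GATA repressor, had ratios of 2.13 in HSCs and 0.712 in CD41low/CD9low HSCs.

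Among 15 partners of the Tal1 complex, 0 of 14 lay above and 2 below in HSCs, and 1 of 12 lay above and 2 below in CD41low/CD9low HSCs. These partners had a median log2 KO/WT of 0.00 in HSCs and of -0.07 in the CD41low/CD9low fraction. Cbfa2t3, the corepressor also called Eto2, stood at 91.0 and 115 CPM in HSCs and 91.1 and 129.7 CPM in CD41low/CD9low HSCs, with ratios of 1.28 and 1.43. Id1 and Id2, inhibitors of E proteins, were at low levels. Id1 had 189 and 35 counts in WT and KO HSCs and 5 and 0 counts in the CD41low/CD9low libraries, and Id2 had 247 and 148 counts and then 74 and 9. Ldb2, the relative of Ldb1, had 37 counts in WT CD41low/CD9low HSCs and 0 in KO, and its ratio in HSCs was 0.428 (0.231 to 0.757).

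Among 9 Runx and Ets partners, Ets1 alone was above 1.5 in HSCs, at 51.0 CPM in WT and 122 CPM in KO with a ratio of 2.43 (2.32 to 2.55), whereas the CD41low/CD9low pair had a ratio of 1.04 (0.945 to 1.14). None of the 9 lay below 0.6 in either population. Erg, the Ets factor of the heptad, stood at 276 and 184 CPM in HSCs and 347 and 394 CPM in CD41low/CD9low HSCs. Etv6, an Ets repressor, had ratios of 1.45 and 1.25. Among 8 relatives and partners of Nfe2, Nfe2l2 lay above in HSCs at 1.59 (1.53 to 1.66) and the small Maf gene Maff lay below at 0.223 (0.191 to 0.258), from 1137 and 205 counts. In CD41low/CD9low HSCs 0 of 7 lay past either limit, with Maff at 0.612 (0.493 to 0.759). Over these 4 lists edgeR called 0 of 34 genes for genotype, as did DESeq2, although 8 had an unadjusted p under 0.05, and at an adjusted p of 0.0762 by edgeR Maff came nearest.

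Genes that GATA, Ets, Runx and Nfe2 factors are known to drive in megakaryocytes were called in both directions. Of 20 such genes, 7 lay above 1.5 and 4 below 0.6 in HSCs, and 7 and 3 of 18 in CD41low/CD9low HSCs. The shares of all genes were 14.1% and 10.3% in HSCs, and 13.5% and 12% in CD41low/CD9low HSCs. For genotype, edgeR called 3 of 19 higher and 2 lower, against 0.535% and 0.308% of all genes. Their summed level was 2413 CPM in WT and 3420 CPM in KO HSCs, and 1021 and 1170 CPM in WT and KO CD41low/CD9low HSCs. Itgb3, the integrin subunit CD61, stood at 202 and 663 CPM in HSCs and 51.4 and 141 CPM in CD41low/CD9low HSCs, with a log2 KO/WT of 1.59 ± 0.15 (SE) and an adjusted p of 1.45e-05 by edgeR. Cavin2 (1.49 ± 0.15) and Treml1 (0.91 ± 0.20) also rose, with adjusted p-values of 4.44e-05 and 0.0369 by edgeR, and Treml1 was not called by DESeq2. Selp, the platelet selectin, and Thbs1 fell, at -1.35 ± 0.21 and -1.29 ± 0.26 with adjusted p-values of 0.00297 and 0.0206 by edgeR. Tubb1, the platelet tubulin that Nfe2 is known to activate, had 505 and 85 counts in HSCs and 54 and 22 in CD41low/CD9low HSCs, with ratios of 0.208 and 0.272 and an adjusted p of 0.114 by edgeR. Gp1bb had 597 and 839 counts in HSCs and 0 and 61 in CD41low/CD9low HSCs.

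Erythroid genes, the other main targets of Gata1 and the Tal1 complex, were lower in KO for 15 of 19 in HSCs and 13 of 18 in CD41low/CD9low HSCs. Of the same genes, 2 of 19 lay above 1.5 and 7 below 0.6 in HSCs, and 3 and 7 of 18 in CD41low/CD9low HSCs. Of all genes, 14.1% lay above and 10.3% below in HSCs, and 13.5% and 12% in CD41low/CD9low HSCs. For genotype 0 were called by edgeR or DESeq2, and 6 of 18 had an unadjusted p under 0.05 by edgeR, all lower. The summed level was 1520 and 949 CPM in WT and KO HSCs and 1103 and 984 CPM in WT and KO CD41low/CD9low HSCs. A large part of each sum was 1 gene, Car2, at 922 and 447 CPM in WT and KO HSCs. Car2 stood at 762 and 705 CPM in WT and KO CD41low/CD9low HSCs, so the sums follow this gene more than the list. Car1, Ermap and Rhd lay below 0.6 in both populations, with 55, 69 and 82 counts in WT CD41low/CD9low HSCs and 0 in KO. Epor, the erythropoietin receptor, was lower in KO HSCs (20.99 and 13.58 CPM) and higher in KO CD41low/CD9low HSCs (3.85 and 10.7 CPM, a ratio of 2.79), the same directions as Gata1. Icam4 and Rhag also lay above 1.5 in the CD41low/CD9low pair, at 2.02 and 1.60. Slc4a1, the anion exchanger of red cells, had 58 and 82 counts in HSCs and 246 and 4 in CD41low/CD9low HSCs, and Sptb, red cell spectrin, had 218 and 3 counts in the latter. The WT CD41low/CD9low library, with the least Gata1, thus held the most Slc4a1 and the least Epor of the 4.

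Mast cell and basophil markers, whose cells need Gata2 and Gata1, were lower in KO CD41low/CD9low HSCs and higher in KO HSCs when summed. Their summed level was 66.5 and 98.3 CPM in WT and KO HSCs and 39.9 and 5.54 CPM in WT and KO CD41low/CD9low HSCs. Of 7 markers with at least 10 counts in HSCs, 2 lay above 1.5 and 2 below 0.6. Of 5 in CD41low/CD9low HSCs, 1 lay above and 4 below. The shares of all genes were 14.1% and 10.3% in HSCs, and 13.5% and 12% in CD41low/CD9low HSCs. For genotype, edgeR and DESeq2 called 0 of 7. Prss34, a basophil protease, had 1295 and 2046 counts in HSCs and 266 and 1 in CD41low/CD9low HSCs. Cpa3, a mast cell protease, went the other way in the latter, with 17 and 65 counts. The rise of the sum in HSCs lay in Prss34, at 25.5 and 49.1 CPM in WT and KO, and Mcpt8, at 10.4 and 19.1 CPM. There Cpa3 had a ratio of 1.10 and Fcer1a one of 0.578. Of the 7 markers, 5 were higher and 2 lower in KO HSCs. Mcpt4 and Tpsb2 were at 0 in all 4 libraries, where the limit that a count of 0 allows is 3 counts, or 0.059 to 0.236 CPM.

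**Figure D5:**
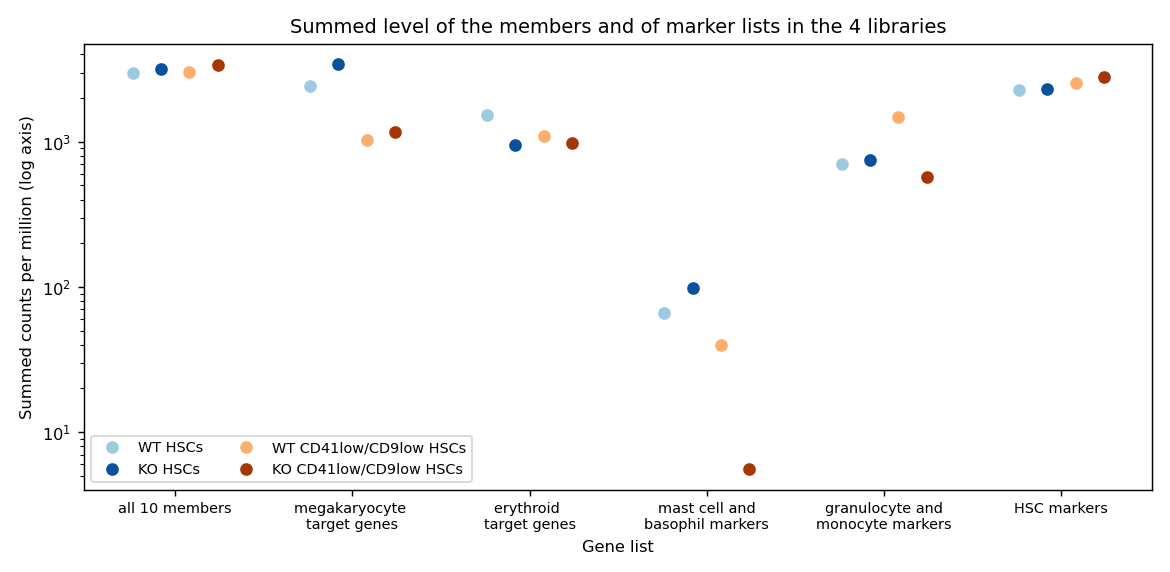
Summed level of the 10 genes and of 5 marker lists in each of the 4 libraries, in CPM on a log axis, with 1 point per library. The sum of the 10 genes stays between 2988 and 3385, while mast cell and basophil markers lie at 5.54 in KO and granulocyte and monocyte markers at 1484 in WT CD41low/CD9low HSCs.

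For each gene the nearest profile was sought among 11064 genes with at least 50 counts in every library, as the smallest value of the largest log2 difference in any of the 4 libraries after centring. Specc1 and Itgb2, an integrin subunit of leukocytes, lay nearest to Gata2, at 0.12 and 0.14. Tiparp and Rnf8 lay nearest to Gata1, at 0.28 and 0.41. Gata1 had only 100 counts in WT CD41low/CD9low HSCs, so counting error adds to these distances. For the other 8 genes the nearest lay within 0.01 to 0.05, among them Tgfbr2, a TGF-beta receptor, for Zfpm1, Mief1 for Tal1, Fbxw8 for Ldb1 and Fam122b for Fli1. With 4 libraries such nearness is a description only.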

How the data were processed

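RNA of sorted HSCs was sequenced as 4 libraries (TruSeq Stranded mRNA), 1 per genotype and population. As deposited, each file holds raw read counts per Ensembl gene: the authors aligned reads to mm10 with TopHat2 2.0.10, processed them with SAMtools and counted with HTSeq, and they tested with DESeq. Not given in the sources used here are the HTSeq version, its strand setting and the release of the annotation. Lines of reads without a gene stayed out of library sizes. Reads without a feature came to 80.0 per 100 gene counts in WT HSCs and 105.3 in KO HSCs. The CD41low/CD9low pair was closer, at 62.0 in WT and 60.1 in KO. The part of this difference in the HSC ratios was not tested. The deposited counts gave library totals from 12732079 to 50781007, so a count of 3 equals 0.059 to 0.236 CPM.

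Gene positions and exon lengths came from GENCODE M21, whose build is that of the files. All but 1 of 149 listed symbols were matched (148). KO/WT ratios used size factors of each pair (median of ratios, KO over WT 0.81 and 1.5), and no pseudocount. Intervals are exact 95% binomial intervals of the KO share. RPKM and CPM were computed from the counts. edgeR 4.0.16 in R 4.3.3 (TMM, quasi-likelihood test, population and genotype terms, Benjamini-Hochberg adjustment, a minimum of 10 counts in 2 or more libraries) gave the main p-values, and DESeq2 and the other alternatives gave those named as such. The fit was tested on simulated data. DESeq2 1.42.0, other size factors, filters, a pseudocount of 1 and a correction for exon length were alternatives. The members and the gene lists were chosen with earlier results of these data known. Genes named from the lists were those past a limit in both populations in 1 direction, with up to 4 more of the largest log2 KO/WT among those with at least 50 counts. Kit, Itga2b, Epor, Icam4, Car2, Mcpt8, Fcer1a and markers given as at 0 were named outside that rule, after their values were seen. Promoter windows are RefSeq's, build GRCm38.p6. Alternatives with at least 1000 counts were added after seeing the data.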

Additional observations from a re-analysis of the deposited data

Results flagged for a closer look

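For 4 of the 10 genes the counting intervals of KO/WT lay wholly below 1 in HSCs and wholly above 1 in CD41low/CD9low HSCs, as they did for 8.07% of all genes. The difference of the log2 ratios, CD41low/CD9low HSCs minus HSCs, was 1.80 for Gata1, with a counting interval of 1.47 to 2.12. It was 0.748 for Lyl1 (0.643 to 0.853), 0.367 for Nfe2 (0.303 to 0.430) and 0.288 for Ldb1 (0.218 to 0.358). With 1 library per genotype and population these differences were not tested, and the intervals cover counting error only.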

How the results depend on the processing

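With a lower limit of 1/1.5 in place of 0.6, 1 gene lay below in HSCs (Lmo2, 0.657) where 0 did before. Corrected for exon length, the HSC ratio of Lmo2 was 0.715, which lies above 1/1.5. The genotype effect called 126 genes, 420 when every gene with at least 1 count was tested and 69 when at least 50 counts were asked for. Without the filter 2 of the 10 genes were called in place of 1, since Zfpm1 was added. Correction for exon length moved 8 of the HSC ratios by more than their counting interval, among them Runx1 to 1.39 and Fli1 to 1.503. The other size factors, the pseudocount and DESeq2 left the count of the 10 genes past each limit or threshold as it was, and no ratio changed direction under any alternative run. No paired analysis was possible because the labels number no replicates, and with 1 library per group no replicate could be left out. Depth limits Gata1 most, at 100 counts in WT CD41low/CD9low HSCs.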

Other observations

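Lymphoid and stromal markers were listed as signs of other cells. The summed level of 8 B cell markers was 23.3, 18.5, 31.3 and 28.7 CPM in WT HSCs, KO HSCs, WT CD41low/CD9low HSCs and KO CD41low/CD9low HSCs. Pax5, Ebf1 and Cd79a were at 0 in both CD41low/CD9low libraries, and most of the sum came from Cd79b. For 8 T cell markers the sums were 10.7, 8.13, 18.1 and 11.5 CPM in the same order, with Cd3e, Cd3d and Cd3g at 0 in both CD41low/CD9low libraries. The 7 endothelial and stromal markers summed to 82.0, 123, 41.8 and 44.2 CPM. Col1a1, a collagen of stromal cells, had 1621 counts in WT HSCs, 2488 in KO HSCs (a ratio of 1.89, above 1.5), and 12 and 7 in the CD41low/CD9low libraries. Procr, the HSC marker also called EPCR, was at 45.7 and 99.0 CPM in HSCs and 165 and 251 CPM in CD41low/CD9low HSCs, with a log2 KO/WT of 0.87 ± 0.16 (SE) and an adjusted p of 0.0117 by edgeR with Benjamini-Hochberg adjustment.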
